A study of Mus musculus with 4 samples.

Results

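The Myc, Max and Mxd network is represented here by 10 genes, Myc, Mycn, Mycl1, Max, Mxd1, Mxd3, Mxd4, Mxi1, Mnt and Mlx, chosen by name from the 23275 entries of the deposited expression table. All 10 were found, and all 10 were among the 12683 entries that the authors tested. Polyadenylated RNA was sequenced from early B-lineage cells, sorted as B220+CD43+ from the marrow of C57BL/6 mice aged 8 weeks, in 4 libraries that each pooled 2 mice. The 2 Hdac3-deleted libraries came from Hdac3F/-Mb1cre+/- mice, which carry 1 conditional and 1 null allele of the deacetylase gene Hdac3. The 2 control libraries came from wild-type Hdac3+/+Mb1cre+/- mice, so the Mb1-cre recombinase, expressed from the Mb1 (Cd79a) locus from the earliest B-lineage stages, was present in both groups. This recombinase is known to be restricted to the B lineage, so other cells of the gate would keep the conditional allele. Below, Hdac3-deleted cells means all sorted cells of the 2 Hdac3-deleted libraries, including any that kept this allele.

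Myc proteins bind DNA only as dimers with Max, through a basic helix-loop-helix leucine zipper, and raise transcription of genes for ribosome assembly, metabolism and division. The Mxd proteins, Mxi1 and Mnt compete for Max at the same sites and recruit the Sin3 corepressor with the deacetylases HDAC1 and HDAC2, while HDAC3 works mainly in the separate NCoR and SMRT complexes. Mlx is an alternative partner for Mxd1, Mxd4 and Mnt, and also for the glucose-sensing Mondo proteins. In B-cell progenitors Myc and Mycn support the proliferation that follows interleukin 7 and pre-B-cell receptor signals.

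The site bound by these dimers, the E-box CACGTG, which reads the same on both strands, lies near the start of some of the network's own genes. RefSeq promoter windows (GRCm38.p6, the assembly of mm10; 250 bases before to 50 after each start) were matched for 9 of the 10 members, Mycl1 under its current symbol Mycl, and 4 of these 9 held the letters. Of all 27025 genes with a window, 8.09% held them in at least 1 window. The stretches of 30 bases around them are shown because they are the sequence that the proteins of the network recognise, with the E-box in capitals and each read 5′ to 3′ on the gene's strand:
Max (chr12:76962234-76962263, minus strand): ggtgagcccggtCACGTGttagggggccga
Mlx (chr11:101087238-101087267, plus strand): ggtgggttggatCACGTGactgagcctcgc
Mnt (chr11:74830789-74830818, plus strand): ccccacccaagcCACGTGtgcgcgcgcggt
Mxd4 (chr5:34187912-34187941, minus strand): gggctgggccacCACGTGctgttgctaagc
The E-box of Max began 3 bases before the annotated start, that of Mlx 40, that of Mnt 123 and that of Mxd4 219 bases before it. The windows of Mycl, Mycn, Mxd1, Mxd3 and Mxi1 did not hold these letters, and the window of Mycn held the E2F letters TTTGGCGC at 2 places. E2F letters, TTTCCCGC or TTTGGCGC on either strand, were found for 1.80% of all genes. Binding was not measured in these samples.

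No member changed in the authors' Cuffdiff test at a q-value under 0.05, where 6.95% of all tested entries were called, 2.81% as higher and 4.14% as lower in Hdac3-deleted cells. At an unadjusted p under 0.05 there were 2 members, Mxd4 and Mycl1, beside 17.1% of all tested entries. With p-values taken from the deposited statistic by a normal curve, 0 members were called as well, and the calls over all entries fell from 881 to 471, or 3.73%. The log2 fold changes of the 10 members had a median of 0.01, with 5 above and 5 below 0, and the median over all tested entries was 0.03. The median size of the difference, regardless of sign, was 0.24 log2 units for the members, 0.22 for all tested entries and 0.18 for the 6232 tested entries at the levels of the 9 members other than Mycn.

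Levels are given in FPKM, which counts fragments per kilobase of transcript and scales them to the size of the library, as the value the authors deposited for each genotype. They carry no spread between libraries, so neighbours in the order of levels cannot be told apart by replicates. Fold changes are Hdac3-deleted over control, computed from these levels without a pseudocount. Each standard error (SE) of a log2 fold change is its size divided by the authors' test statistic, and each interval is a 95% normal interval, not adjusted for the number of genes. The deposited p-values do not equal those that a normal curve gives for the statistic and can be smaller, so an interval can include 0 beside a small deposited p. The deposited values do not show whether fewer cells of a type or less RNA per cell lies behind a lower level in such sorted populations.

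In control cells Max was the most abundant member at 61.0 FPKM, followed by Mxd3 at 46.4, Mxd4 at 38.4, Myc at 34.9 and Mlx at 31.7 FPKM. Mycl1 at 15.7, Mxd1 at 13.8, Mxi1 at 9.97 and Mnt at 8.21 FPKM formed the lower part of the range, and Mycn was last at 0.816 FPKM. In Hdac3-deleted cells the order was the same except that Mxd4 stood above Mxd3 and Mnt above Mxi1. The 9 members other than Mycn were at 8 FPKM or more in both genotypes.

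**Figure D1:**
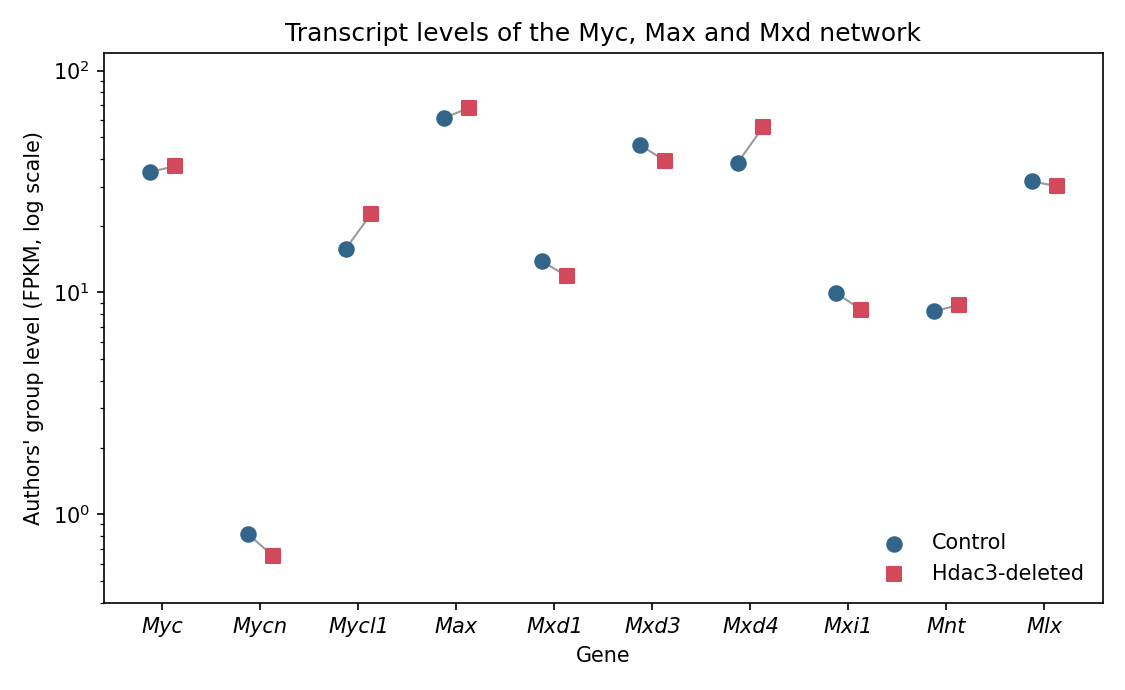
Authors' group level of each member in FPKM on a log scale, control as circles and Hdac3-deleted as squares, with 1 value per genotype and no error bar because no spread between libraries was used. The pairs lie close together for most genes, and the widest upward steps are those of Mxd4, from 38.4 to 55.7 FPKM, and Mycl1, from 15.7 to 22.6 FPKM.

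Myc, the main activator of the family and the gene on chromosome 15 from 61985341 to 61990361 (mm10, plus strand), was 34.9 FPKM in control and 37.1 FPKM in Hdac3-deleted cells. This is a 1.06-fold difference, a log2 fold change of 0.09 ± 0.29 (SE), and the authors' deposited table gives q = 0.912. The interval of the ratio ran from 0.719 to 1.57, so it contained neither a doubling nor a halving of Myc RNA. Max, the partner that every Myc dimer needs, was 61.0 and 68.0 FPKM, with a log2 fold change of 0.16 ± 0.28 (SE). Its interval ran from -0.39 to 0.70, and q was 0.790 in the authors' deposited table.

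Mycl1, which encodes L-Myc, a family member known for its expression in dendritic cells, was 15.7 FPKM in control and 22.6 FPKM in Hdac3-deleted cells. The difference of 1.44-fold, 0.52 ± 0.29 (SE) on the log2 scale, did not pass the test, with p = 0.0094 and q = 0.102 in the authors' deposited table. Its interval, from -0.04 to 1.09, includes both no change and a doubling. The interval rests on the deposited statistic, for which a normal curve gives a probability of 0.0676, and not on the smaller deposited p-value. Plasmacytoid dendritic cell markers were present in these sorted cells at a summed level of 3536 FPKM in control and 4555 FPKM in Hdac3-deleted cells over 14 genes, none at 0. All 14 had positive log2 fold changes, from 0.19 to 0.59 with a median of 0.42. Of them 0 passed the Cuffdiff test and 5 had an unadjusted p under 0.05, against 6.95% and 17.1% of all tested entries. The most abundant were Ly6d, at 721 FPKM in the control and 924 FPKM in the other group, and Bst2, at 578 and 670 FPKM. Of the 14 genes, 1 is also in the list of regulators of Myc transcription in lymphoid cells below. How much RNA of the 14 came from plasmacytoid dendritic cells and how much from B-lineage cells was not tested. Nor was the part of plasmacytoid dendritic cells in the Mycl1 value.

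Mycn, the paralogue that acts in progenitors, was near the lower end of the tested range, at 0.816 FPKM in control and 0.648 FPKM in Hdac3-deleted cells. Its log2 fold change was -0.33 ± 0.53 (SE), with an interval from -1.37 to 0.71 and q = 0.753 in the authors' deposited table, so a change in either direction was not resolved at this level. With a pseudocount of 1 FPKM the value was -0.14. Summed over the 3 activators, the level was 51.5 FPKM in control and 60.4 FPKM in Hdac3-deleted cells. Myc supplied 67.8% of this sum in control and 61.4% in Hdac3-deleted cells, Mycl1 30.6% and 37.5%, and Mycn 1.59% and 1.07%.

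Among the repressors, Mxd4 had the largest difference of all 10 members as deposited, although relative to the median of the B-lineage markers its log2 fold change was 0.06 and the largest was that of Mycn at -0.81. It lies on chromosome 5 from 34176580 to 34187710 (mm10, minus strand), with the E-box shown above in its promoter window, and was 38.4 FPKM in control and 55.7 FPKM in Hdac3-deleted cells. The 1.45-fold difference, 0.54 ± 0.26 (SE) on the log2 scale, had p = 0.0066 and q = 0.0790 in the authors' deposited table and so did not pass. It was the 1 member whose unadjusted interval, from 0.03 to 1.04, lay on a single side of 0. It was also the 1 member that would be called at a q under 0.1, where the share of all tested entries was not computed. Mxd4 is known as a repressor of resting and differentiated cells.

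The other Mxd family members pointed the opposite way, without passing the test. Mxd1, a repressor induced in differentiating cells and abundant in granulocytes, was 13.8 and 11.8 FPKM, with a log2 fold change of -0.23 ± 0.27 (SE). Mxi1 was 9.97 and 8.36 FPKM, at -0.25 ± 0.29 (SE). Mxd3, a member expressed in dividing cells during S phase, was 46.4 and 39.1 FPKM, at -0.25 ± 0.65 (SE). The authors' deposited table gives q between 0.593 and 0.876 for these genes. Neither Mxd1 nor Mxi1 has an interval that reaches a halving, with lower bounds of the ratio of 0.596 and 0.568. Whether Mxd4 differed from the other family members in its response was not tested.

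Neutrophil and monocyte markers moved with the genotype in the same samples, with 15 of 17 tested genes lower and 0 higher. Of these markers 88.2% were called, against 6.95% of all tested entries. Their summed level was 11303 FPKM in the control libraries and 2802 FPKM in the Hdac3-deleted libraries. Their median log2 fold change was -1.98, and none of these markers was at a level of 0. Lyz2, which encodes lysozyme, fell from 518 to 125 FPKM and S100a8 from 4815 to 1172 FPKM. The part of such cells in the value of Mxd1 was not tested.

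The estimate for Mxd3 was less precise than those of its relatives. Its SE of 0.65 compares with 0.26 to 0.33 for the 8 members other than Mxd3 and Mycn, and only 2.70% of 6232 tested entries between the lowest and highest mean level of those 8 had an SE as large. The deposited table lists Mxd3 and the mitochondrial lipid transfer gene Prelid1 under the same locus, chromosome 13 from 55322055 to 55329730. In the GENCODE M21 annotation of mm10 these genes lie on opposite strands and share 105 exonic bases. Prelid1 was 193 and 177 FPKM. Mlx likewise shares its locus with Psmc3ip, a recombination cofactor gene on the opposite strand, with 385 shared exonic bases. Psmc3ip was 22.4 and 12.5 FPKM, at -0.85 ± 0.63 (SE) on the log2 scale, and did not pass. The SE of Mlx was 0.29. Whether the shared locus widened the SE of Mxd3 was not tested. The sources used here do not say whether strand was kept, so the values of Mxd3 and Mlx are less certain than the rest.

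Mnt, the broadly expressed repressor that balances Myc in many tissues, was 8.21 FPKM in control and 8.79 FPKM in Hdac3-deleted cells. Its log2 fold change was 0.10 ± 0.33 (SE), with an interval from -0.56 to 0.75. Over the 5 repressors the summed level was 117 FPKM in control and 124 FPKM in Hdac3-deleted cells. Mxd3 made up 39.7% of that sum in control and 31.6% in Hdac3-deleted cells, and Mxd4 32.9% and 45.0%. The ratio of summed repressors to summed activators was 2.27 in control and 2.05 in Hdac3-deleted cells, a change to 0.903 of the control ratio. Without Mxd4 and Myc, the members on each side with the highest mean over both genotypes, the ratio went from 4.74 to 2.93, to 0.618 of the control value. Without Mxd3 and Myc, the highest on each side in control cells, it went from 4.26 to 3.64, to 0.855 of that value. These sums have no error of their own.

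**Figure D2:**
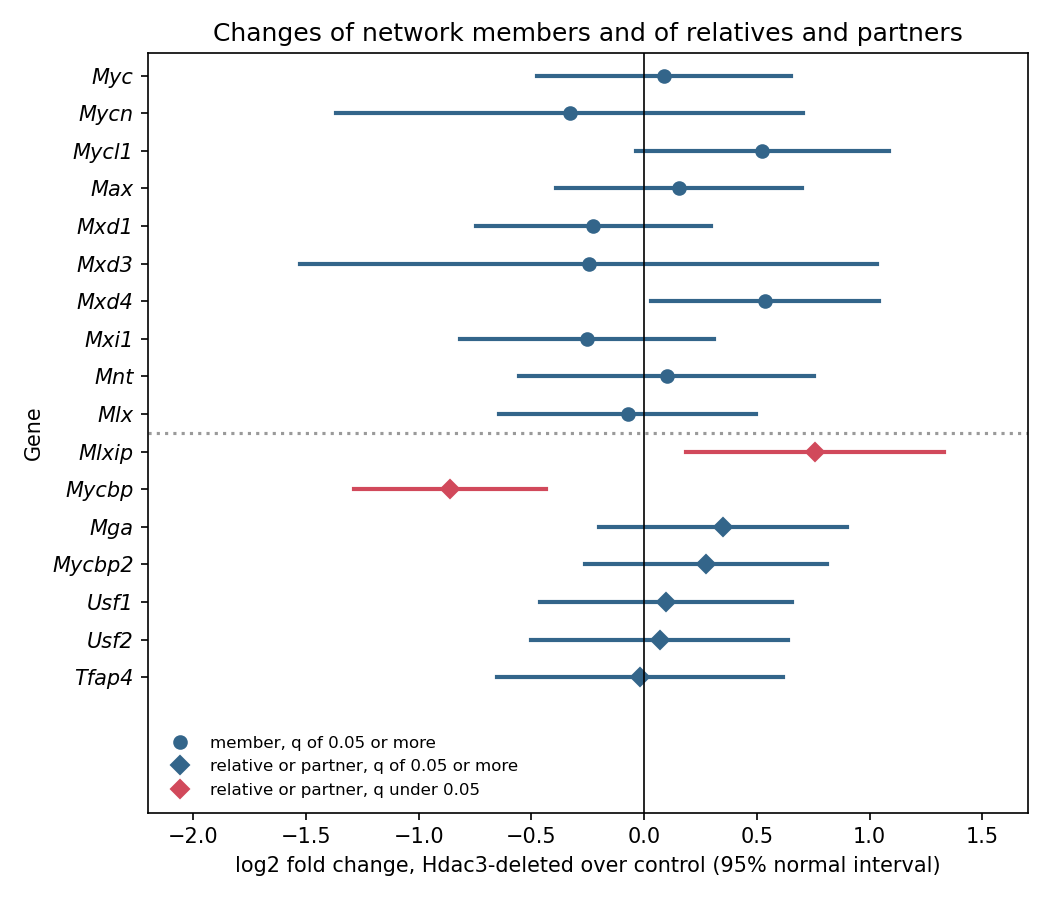
Log2 fold change of Hdac3-deleted over control cells for the 10 members (circles, above the dotted line) and 7 relatives and partners (diamonds), with 95% normal intervals as bars and red for genes past the authors' q of 0.05. Of the members, Mxd4 alone has an interval clear of 0, from 0.03 to 1.04, and below the line Mlxip and Mycbp are the genes past the test.

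The sizes that were called at the members' levels give a scale for these differences. Among the 6232 tested entries between the lowest and highest mean level of the 9 better expressed members, 8.50 to 64.5 FPKM, the smallest difference called was 0.56 log2 units, and 5.73% of the entries were called. Mxd4 at 0.54 and Mycl1 at 0.52 lay just under that size. At that level 235 entries differed by 0.5 to 0.6 log2 units, of which 27 were called. The intervals of 6 members lay within a 2-fold change in either direction, and those of Mycl1, Mxd4, Mxd3 and Mycn did not.

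**Figure D3:**
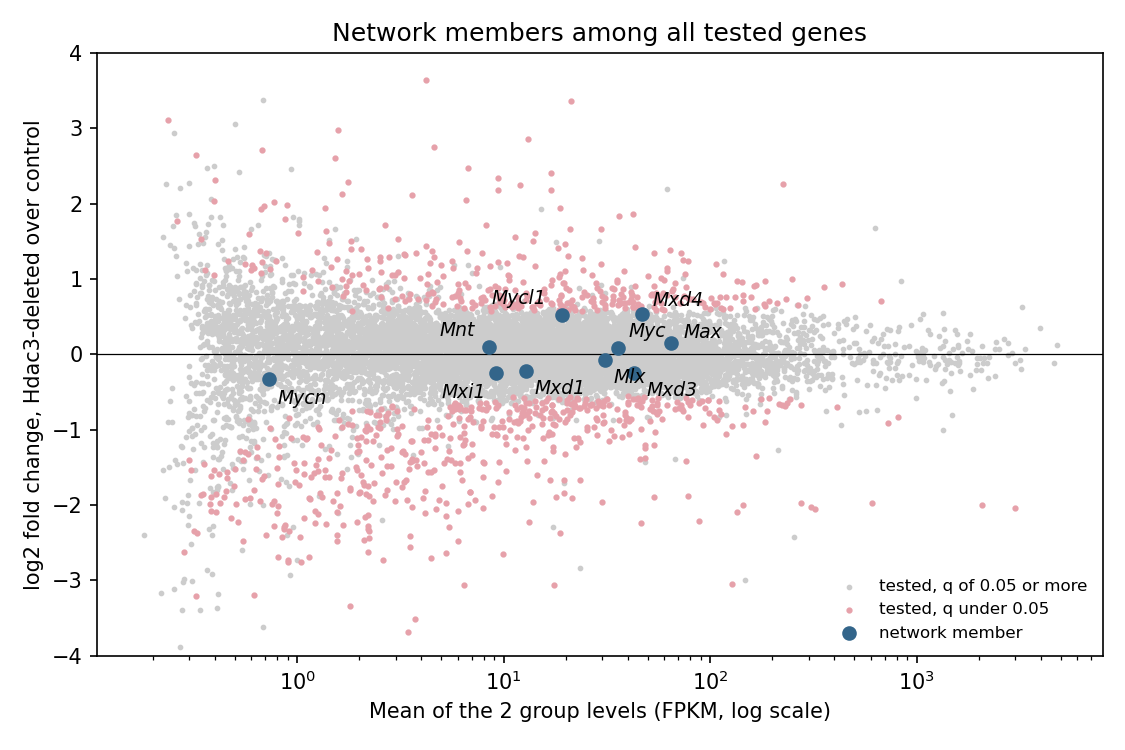
Log2 fold change of Hdac3-deleted over control cells against the mean of both group levels in FPKM (log scale) for all tested genes, with genes past the authors' q of 0.05 in pink and the 10 members in blue; 12 genes beyond 4 log2 units lie outside the axis, and 40 with a level of 0 in a genotype are not drawn. The members lie inside the grey cloud of uncalled genes, with Mycl1 and Mxd4 at its upper edge.

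Of 7 tested relatives and partners, a list chosen with earlier results of these data known, 1 was called higher and 1 lower. This was 28.6%, against 6.95% of all tested entries. Mlxip encodes MondoA, the glucose-sensing protein that acts as a dimer with Mlx, and rose 1.69-fold from 28.2 to 47.7 FPKM, with q = 0.00756 in the authors' deposited table. Its log2 fold change was 0.76 ± 0.29 (SE). Mlx itself was 31.7 FPKM in control and 30.1 FPKM in Hdac3-deleted cells, at -0.07 ± 0.29 (SE), so the ratio of Mlxip to Mlx went from 0.891 to 1.59. The related Mlxipl, which encodes ChREBP, was at 0.0440 and 0.0196 FPKM and was not tested by the authors. Mycbp, which encodes a small protein that binds the amino-terminal part of Myc, fell 1.82-fold from 23.9 to 13.1 FPKM, at -0.86 ± 0.22 (SE) and q = 0.0016 in the authors' deposited table.

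The remaining 5 tested relatives and partners did not pass. They were Mga, a Max partner that also carries a T-box, at 0.35, the ubiquitin ligase gene Mycbp2 at 0.27, the E-box binding factors Usf1 at 0.10 and Usf2 at 0.07, and Tfap4 at -0.02 on the log2 scale. Of the 6 tested genes described as targets of Mlx with Mondo proteins, 0 changed in the Cuffdiff test, also at an unadjusted p under 0.05, and their median log2 fold change was 0.16. Among them Txnip, an inhibitor of glucose uptake and the best known MondoA target, was 155 FPKM in control and 200 FPKM in Hdac3-deleted cells. Its log2 fold change was 0.36 ± 0.31 (SE). Klf10 was 16.3 and 18.4 FPKM.

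Genes whose products work with the network's proteins did not pass the test in any of 3 lists. Of 55 tested genes for Myc coactivators, Sin3 corepressor subunits and factors of Myc protein turnover, 0 were called by Cuffdiff, against 6.95% of all tested entries. An unadjusted p under 0.05 was given for 8 of these genes, against 17.1% of all tested entries. Their log2 fold changes ran from -0.52 to 0.62. The medians were 0.03 for 17 coactivators, -0.05 for 17 corepressor subunits and -0.07 for 21 turnover genes. Smarcb1 and Actl6a, subunits of SWI/SNF-type remodelling complexes, were the most abundant coactivator genes, at 67.5 and 56.9 FPKM and at 64.6 and 52.9 FPKM. The histone-binding subunit genes Rbbp7, at 157 and 128 FPKM, and Rbbp4, at 124 and 108 FPKM, led the corepressor list. Both share a locus with other entries, as do Ppp2r5a, Ncl, Txnip, Ccna2 and Cdc20 among the genes named here. Shared exonic bases were not counted for these genes, so any effect on their values is unknown. In the turnover list Ppp2r5a, a phosphatase subunit gene, was 114 and 89.9 FPKM, and Pim1, a kinase that stabilises Myc, 57.6 and 78.7 FPKM.

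Genes with a described effect on Myc transcription in lymphoid cells moved more, with 4 of 17 higher and 0 lower, or 23.5% against 6.95% of all tested entries. Lef1, a nuclear partner of beta-catenin, rose from 46.6 to 110 FPKM, and its relative Tcf7 from 21.4 to 33.5 FPKM. The forkhead factor gene Foxo1 rose from 38.3 to 77.6 FPKM, while the B-cell identity factor gene Pax5 rose from 79.7 to 121 FPKM. The Ikaros family genes Ikzf1 and Ikzf3, whose products lower Myc in pre-B cells, were at -0.40 and -0.41 on the log2 scale and did not pass. The list's median was 0.33. Markers of the B lineage, of which Pax5 and Il7r are also in this list, had 7 of 16 higher (43.75%) and a median of 0.48 in the same samples. Their part in these values was not tested.

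Textbook targets that Myc activates had mostly lower values in Hdac3-deleted cells. Of 91 tested genes in 3 lists, 80 had negative log2 fold changes, or 87.9%, against 46.5% of all tested entries, but the share called, 8.79%, lay near the background of 6.95%. Called genes numbered 7 lower and 1 higher, and the median was -0.20. Myc RNA itself did not differ detectably in the whole gate, at 0.09 on the log2 scale. Relative to the B-lineage markers it lay at -0.39, by a shift of 0.48 that would lower the targets as well. A link of the targets' values to Myc was not tested.

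Growth and metabolism targets had 4 of 39 lower and 1 higher, or 12.8% called against 6.95% of all tested entries. Odc1, the rate-limiting enzyme of polyamine synthesis and a classic Myc target, fell 1.68-fold from 66.7 to 39.6 FPKM. Cad, which starts pyrimidine synthesis, fell 1.57-fold from 15.7 FPKM. The lactate transporter gene Slc16a1 fell from 68.8 to 40.4 FPKM and the folate enzyme gene Mthfd1 from 24.5 to 16.2 FPKM. Tert, the telomerase reverse transcriptase, rose from 1.20 to 2.26 FPKM. A further 31 genes of the list had negative values without passing, and the list's median was -0.28. The authors' deposited table gives q between 0.0016 and 0.0336 for the genes that passed.

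Ribosome biogenesis targets differed less. None of 35 passed the Cuffdiff test, against 6.95% of all tested entries, and 1 had an unadjusted p under 0.05, against 17.1%. The median was -0.10 with 31 negative values. The nucleolar genes Npm1 and Ncl were 788 and 633 FPKM and 147 and 140 FPKM. Cell cycle targets had 3 of 17 lower (17.6%) and 0 higher, with a median of -0.27. Cks1b and Cks2, small subunits of cyclin-dependent kinases, fell from 184 to 113 FPKM and from 286 to 183 FPKM, and the replication helicase gene Mcm5 from 111 to 72.4 FPKM. General proliferation markers had 6 of 20 lower (30%) and 0 higher, with a median of -0.41. Ccnb2, a mitotic cyclin, fell from 168 to 86.5 FPKM, and the spindle checkpoint kinase gene Bub1 from 39.8 to 21.3 FPKM. Ccna2, Cdc20, Ccnb1 and Rrm2 were the other 4. The part of proliferation in the values of Myc targets was not tested.

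Genes that Myc is known to repress moved in both directions, with 2 higher and 2 lower of 17 tested and a median of 0.18. Cdkn1a, the cell cycle inhibitor p21, rose from 14.2 to 44.9 FPKM and the antiproliferative gene Btg2 from 118 to 199 FPKM. Cdkn2c, the inhibitor p18, fell from 74.6 to 32.5 FPKM and Thbs1 from 1.51 to 0.692 FPKM. Of these lists, that of repressed genes and that of regulators of Myc transcription each had 23.5% of tested genes called, and the coactivator, corepressor, turnover and ribosome lists 0. Over all tested entries the share was 6.95%.

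**Figure D4:**
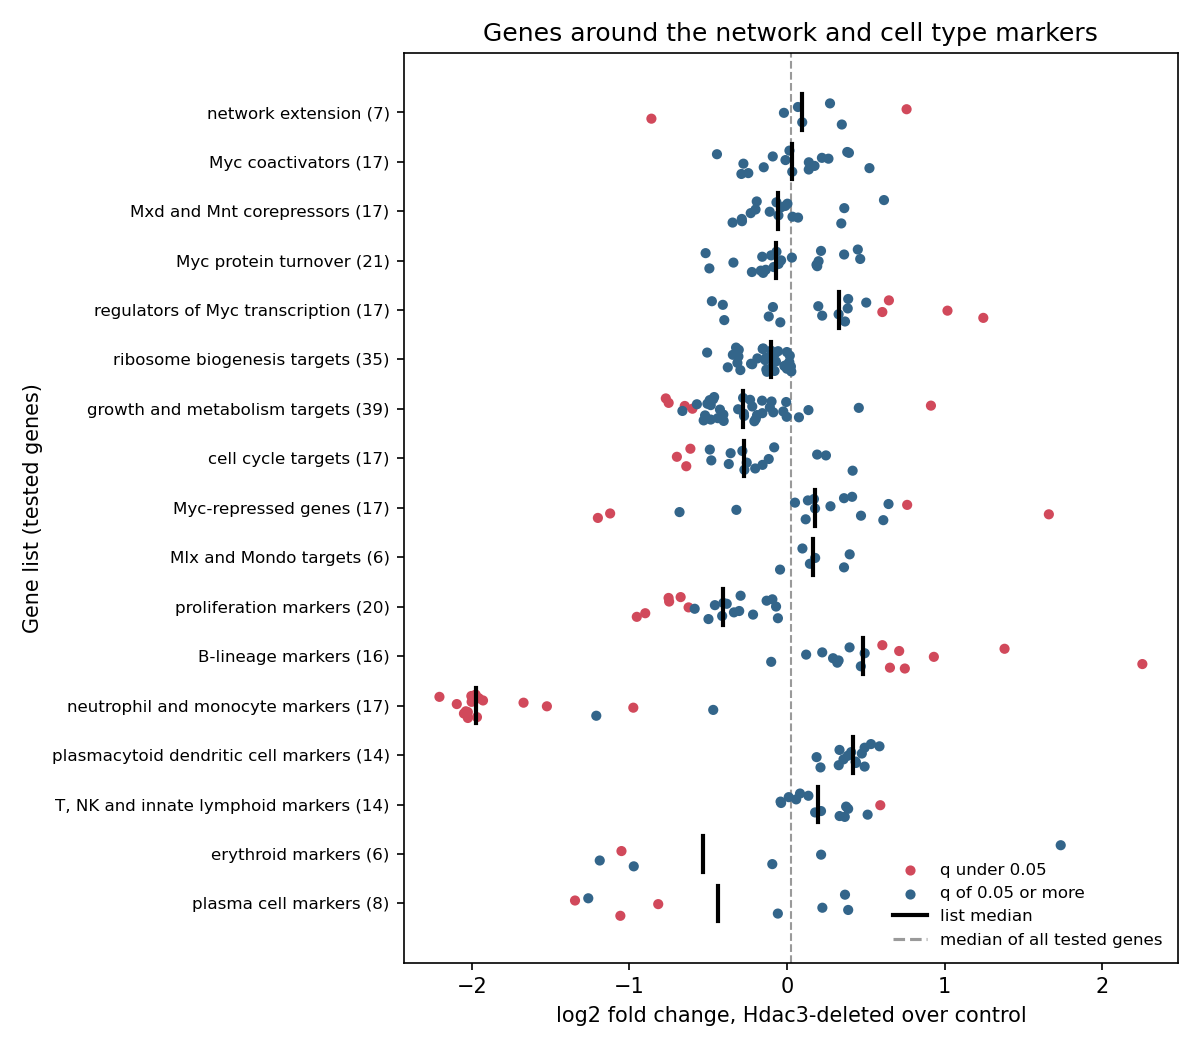
Log2 fold change of Hdac3-deleted over control cells for each tested gene of the lists around the network and of the cell type markers, with the number of tested genes in parentheses, red for genes past the authors' q of 0.05, a black bar at each list's median and a dashed line at the median of all tested genes, 0.03. The target lists sit left of the line with medians of -0.10, -0.28 and -0.27, and neutrophil and monocyte markers lie farthest from it at -1.98.

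The whole sorted population was the unit of measurement. Hdac3 RNA in the Hdac3-deleted libraries was 47.1% of the control level, 22.0 against 46.8 FPKM. This value includes exons outside the deleted part and any cells that kept the conditional allele beside the null allele. The part of either in it was not tested. Markers of the B lineage were abundant, at summed levels of 3534 FPKM in control and 5093 FPKM in Hdac3-deleted cells over 16 genes with none at 0. Rag1, which encodes part of the enzyme that cuts antigen receptor genes, rose from 77.8 to 372 FPKM, the largest log2 fold change of that list at 2.25. The log2 fold changes of these markers ran from -0.10 to 2.25, with 15 positive and 1 negative. Of the 16 markers 7 were called higher, so their median is not a fixed reference. Relative to that median, 0.48, the members Myc, Max and Mnt would lie at -0.39, -0.32 and -0.38, and Mycl1 and Mxd4 at 0.04 and 0.06.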

How the data were processed

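RNA from 4 libraries was analysed, 2 per genotype, grouped by the labels. Per the submitters' processing notes, Trimmomatic 0.32, TopHat2 2.0.11 and Cuffdiff 2.1.1 were used with mm10. Their options, the annotation and how libraries were scaled are not given in the sources used. Per the labels' protocols, libraries came from polyadenylated RNA with an Illumina TruSeq kit. Per the file headers, each row of the deposited table gives an FPKM for either genotype, a test statistic (a score), a p-value and a q-value, which equals a Benjamini-Hochberg adjustment over the tested entries within 5.27e-07. The smallest deposited p-value was 5e-05. No value per library was used, so p-values rest on the authors' model. Whether the 2 libraries of a group came from separate mice beyond the pooling is not stated, and the spread may be partly technical.

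The rows of the 10 members were taken by gene symbol. From the FPKM values, log2 fold changes were computed without a pseudocount, with the SE taken from the deposited statistic. The code for these steps was tested on simulated normal values drawn with these SEs. That test cannot show whether the SEs and intervals hold for the deposited data. A gene was called at the authors' q under 0.05. The members and 17 gene lists were chosen with earlier results of these data known. Named were all members, Hdac3, up to 6 called genes of each list by smallest q, ties by fold, and otherwise the 2 most abundant. The other relatives and partners, Ikzf1, Ikzf3, Irf4, Prdm1, Xbp1, Prelid1 and Psmc3ip were named after their values were seen. Lists are described by counts and medians, with no set test. No gene was matched to a member by pattern, since there are 2 group values per gene. A planned comparison of protein sequences was not made. Depth is unknown, although 80 entries share a ratio of 1.14 between the genotypes, which may be the relative worth of 1 fragment. The work used Python 3.11.15 with scipy 1.17.1, statsmodels 0.14.6, numpy 2.4.6, matplotlib 3.10.9 and pandas 2.3.3.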

Additional observations from a re-analysis of the deposited data

How the results depend on the processing

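No paired analysis was possible because the deposited table gives 1 value per genotype, and for the same reason no library could be left out. The count of called members was 0 at a q under 0.01, with a minimum 1.5-fold difference and with a normal approximation. By that approximation 471 of all entries were called, against 881. The count was also 0 with at least 1 FPKM in both genotypes (9 members, without Mycn), where 684 of 11116 entries were called. Without entries that share a locus (8 members, without Mxd3 and Mlx) it was 0 as well. At a q under 0.1 it was 1, Mxd4. Of 40 alternative log2 fold changes of members, 3 changed direction, all from centring on the B-lineage markers, a shift of 0.48: Myc went to -0.39, Max to -0.32 and Mnt to -0.38. Centring on the median gene, a shift of 0.02, and pseudocounts of 1 and 0.1 FPKM changed no member's direction. The ratio of repressors to activators in Hdac3-deleted cells, relative to control cells, went from 0.903 to 0.618 without Mxd4 and Myc, highest by the mean over genotypes, and to 0.855 without Mxd3 and Myc, highest in control cells, an alternative chosen after seeing the data. At a q under 0.01 the counts of changed genes were 2 for regulators of Myc transcription, 2 for growth and metabolism targets, 0 for cell cycle targets, 2 for proliferation markers, 0 for markers of T, NK and innate lymphoid cells and 3 for B-lineage markers. At a q under 0.1 they were 9 for growth and metabolism targets, 8 of them lower, 1 for corepressors, 1 for plasmacytoid dendritic cell markers and 2 for erythroid markers. These changes follow from the threshold alone. The share of all tested entries at a q under 0.01 or under 0.1 was not computed, so these counts have no background beside them. Of 34 alternative list medians, 33 moved by less than 0.1, and that of the erythroid markers went from -0.53 to -0.18 with a pseudocount of 1 FPKM.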

Other observations

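Of 14 tested T, NK and innate lymphoid markers, 1 rose and 0 fell, with a median log2 fold change of 0.20. This was 7.14% called, against 6.95% of all tested entries. The gene was Eomes, a T-box factor of NK cells and memory T cells, which rose from 14.8 to 22.4 FPKM. Erythroid markers had 1 lower gene of 6 tested (16.7%), Car2, a carbonic anhydrase, from 54.4 to 26.3 FPKM, and 4 of those found were not tested by the authors. Plasma cell markers had 3 lower genes of 8 (37.5%) and a median of -0.44, with 5 negative and 3 positive values. The positive ones were the transcription factor genes Irf4, Prdm1 and Xbp1, at 0.39, 0.37 and 0.22 on the log2 scale, which did not pass. Igj, the joining chain of polymeric immunoglobulins, fell from 239 to 93.9 FPKM, Sdc1, which encodes CD138, 1.76-fold from 23.0 FPKM, and Derl3, a factor of protein quality control, from 6.04 to 2.90 FPKM. Among neutrophil and monocyte markers outside those above, Ltf fell from 218 to 50.9 FPKM, Camp from 495 to 122 FPKM, Chi3l3 from 145 to 31.5 FPKM and Cebpe from 5.78 to 1.42 FPKM. Among B-lineage markers, the recombinase gene Rag2, which shares its locus with another entry, rose 2.60-fold, the polymerase gene Dntt 1.91-fold, the adaptor gene Blnk 1.68-fold, and Igll1 and Vpreb1, which encode the surrogate light chain, 1.64-fold and 1.57-fold.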
